A study of Homo sapiens with 6 samples.

Results

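AXL, EGFR, MET, ERBB2, EPHA2, FGFR1, IGF1R, MERTK and TYRO3 encode receptor tyrosine kinases, and GAS6 encodes the secreted ligand of AXL and its relatives. These 10 genes were taken by symbol from the 61280 gene rows of the deposited table, where each symbol occurred in a single row. RNA was sequenced from MDA-MB-231, a human triple-negative breast cancer cell line, in 3 libraries of untreated control cells and 3 libraries of cells given 20 Gy of X-rays and then cultured for 24 h. How long the controls were cultured is not given, so culture time and irradiation cannot be told apart. Nothing says that replicates were separate cultures, so p-values reflect the spread between these libraries alone, which may be technical.

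Receptor tyrosine kinases span the plasma membrane. Most pair up when an extracellular ligand binds and phosphorylate one another, which recruits adaptor proteins and starts the RAS-ERK and PI3K-AKT pathways. AXL, MERTK and TYRO3 form the TAM family, which binds GAS6 on exposed phosphatidylserine. Protein S is a ligand of MERTK and TYRO3. AXL is known in breast cancer for its association with a mesenchymal, invasive state and with resistance to therapy. EGFR is characteristically expressed in triple-negative tumours, while ERBB2 (HER2) is the receptor whose amplification defines another breast cancer class.

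Values are in TPM, the share of a library that a transcript takes after division by its length. Levels can thus be set side by side between genes and between libraries, within limits. Irradiated replicate 2 was low for long transcripts, as given below, and abundant transcripts that rise push the others down. A gene was called where limma on log2(TPM + 1), with Benjamini-Hochberg adjustment over the 14621 genes that reached 1 TPM in 3 or more libraries, gave an adjusted p under 0.05. All 10 genes were tested. AXL alone was called, and it fell. The other 9 did not pass. That is 1 of 10 members, against 10.6% of all tested genes (6.53% called higher and 4.07% called lower), so the share of members called was near the background. The 3 irradiated and 3 control values did not overlap for 4 of the 10 (AXL and EPHA2 below, TYRO3 and FGFR1 above), against 34.9% of all tested genes. The median log2 change of the 10 was 0.04, against 0.03 over all tested genes.

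The identity of the line was checked on marker genes. VIM was at 1583 to 2011 TPM over the 6 libraries and PGR was listed at 0 in all of them, while ESR1 was at most 0.39 TPM. KRT19 of the luminal list was at 151 to 168 TPM, so that list was not low as a whole. The 5 immune cell markers summed to 59.98 to 67.47 TPM in the controls and 95.41 to 132.61 TPM in the irradiated libraries. CD68, a lysosomal glycoprotein gene used as a macrophage marker, made up most of these sums and rose from 67.05, 63.49 and 59.03 TPM to 92.03, 97.26 and 94.8 TPM (log2 change 0.58 ± 0.06 SE, adjusted p = 0.00391 by limma). PTPRC, the pan-leukocyte CD45 gene, was at 40.36 TPM in irradiated replicate 1 and at most 0.45 TPM elsewhere, with MS4A1 at 0 everywhere and CD3E at most 0.05 TPM. The 4 endothelial markers summed to at most 1.83 TPM in any library. Without irradiated replicate 1, the log2 change of AXL was -0.36 ± 0.06 SE (adjusted p = 0.0324 by limma). The part of these markers, PTPRC and CD68 included, in the results was not tested.

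The proximal promoters of AXL and EPHA2 are shown because these were the most abundant receptor transcripts and the only members whose 3 irradiated values all lay below the 3 control values. Each stretch holds the 250 bases before the RefSeq start (GRCh38.p14), 5′ to 3′ on the gene's strand. Capitals mark GC boxes (GGGCGG or its reverse complement CCGCCC, the letters bound by SP1-type factors) and a cyclic AMP response element (CRE, TGACGTCA, the same on both strands); no marked sites overlap.
AXL, chr19:41218973-41219222, plus strand: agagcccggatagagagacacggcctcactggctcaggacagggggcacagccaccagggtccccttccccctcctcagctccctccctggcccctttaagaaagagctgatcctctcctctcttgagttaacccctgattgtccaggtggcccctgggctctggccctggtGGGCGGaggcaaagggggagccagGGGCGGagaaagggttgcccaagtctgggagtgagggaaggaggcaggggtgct
EPHA2, chr1:16156070-16156319, minus strand: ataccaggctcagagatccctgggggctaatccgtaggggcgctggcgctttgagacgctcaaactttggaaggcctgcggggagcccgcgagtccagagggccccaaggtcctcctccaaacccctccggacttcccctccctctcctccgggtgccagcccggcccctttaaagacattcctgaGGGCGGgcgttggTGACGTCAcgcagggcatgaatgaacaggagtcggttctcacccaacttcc
The AXL window held 2 GC boxes and the EPHA2 window 1, a motif present in 42.6% of the 35116 RefSeq promoter windows of this length. At their first listed starts, other members held 4 (MERTK), 3 (GAS6, TYRO3), 2 (EGFR, MET, IGF1R) and 0 (ERBB2). The windows of the second starts of EGFR and TYRO3 held 0. The CRE letters occurred in the EPHA2 window and in 1.65% of all windows; they were looked for after the sequence had been seen. Neither the AXL nor the EPHA2 window shown held TATAAA (or TTTATA), found in 10.7% of windows, or the AP-1 letters TGANTCA, found in 6.57%. RefSeq lists another AXL start whose upstream window (chromosome 19, 41226505 to 41226754) held none of these motifs. The gene-level TPM do not say which start was used, and a match of letters is a description of the sequence only.

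AXL (ENSG00000167601; chromosome 19, 41219203 to 41261766, plus strand, hg38) was the most abundant of the 10 transcripts in both groups. It stood at 185.7, 188.79 and 185.67 TPM in control replicates 1 to 3 and at 145.4, 137.45 and 154.18 TPM in irradiated replicates 1 to 3. No irradiated value reached the control range. The mean fell by 22.0%, from 187 ± 1.79 to 146 ± 8.37 TPM (SD, n = 3 per group; log2 change -0.36 ± 0.05 SE, adjusted p = 0.00921 by limma). By p it ranked 213 among the 14621 tested genes. In bulk RNA, fewer AXL-expressing cells and less AXL RNA per cell cannot be told apart. AXL kept its call in each of the 16 alternative analyses, with log2 changes of -0.41 to -0.32 and adjusted p of 0.00575 to 0.0493. An exact permutation test of this single gene gave p = 0.1, the smallest that 3 against 3 samples allow.

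TYRO3, the TAM receptor best known from the nervous system (ENSG00000092445; chromosome 15, 41557675 to 41583586), lay in the other direction. Its values were 11.24, 10.63 and 10.2 TPM in the controls and 13.46, 14.74 and 11.79 TPM after irradiation. The ranges did not overlap, but the difference did not pass the test (log2 change 0.29 ± 0.10 SE, 95% interval 0.06 to 0.52 before adjustment, adjusted p = 0.108 by limma). MERTK, which mediates the uptake of dying cells by phagocytes (ENSG00000153208; chromosome 2, 111898479 to 112029561), was the least abundant member. It was at 7.29, 6.94 and 8.07 TPM in the controls and 9.12, 6.99 and 8.71 TPM after irradiation, with overlapping ranges (log2 change 0.13 ± 0.12 SE, 95% interval -0.15 to 0.41, adjusted p = 0.516 by limma). Its change was 0.065 without irradiated replicate 1, 0.24 without irradiated replicate 2 and 0.079 with quantile normalization, uncalled in each.

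AXL made up most of the TAM family TPM, so its share and the family sum largely restate the fall of AXL. AXL made up 90.9%, 91.5% and 91.0% of the summed AXL, MERTK and TYRO3 TPM in the controls and 86.6%, 86.3% and 88.3% after irradiation. The 3 transcripts together went from 205 ± 1.32 to 167 ± 7.77 TPM (SD, n = 3 per group). For both measures the groups did not overlap and the exact permutation test gave its smallest possible p, 0.1 (0.15 adjusted over 6 composition measures).

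GAS6, the vitamin K-dependent ligand of the TAM receptors (ENSG00000183087; chromosome 13, 113820549 to 113864067, minus strand), was expressed by the cells themselves. It was at 32.55, 30.48 and 34.4 TPM in the controls and at 31.74, 34.05 and 32.75 TPM after irradiation. All 3 irradiated values lay inside the control range, and the log2 change was 0.02 ± 0.06 SE (95% interval -0.14 to 0.17, adjusted p = 0.892 by limma). Its sign turned to -0.066 when trends on GC content and length were removed and to -0.013 with median-ratio scaling. PROS1 encodes protein S, the ligand of MERTK and TYRO3. It was at 22.7 ± 0.720 TPM in the controls and 25.4 ± 1.81 TPM after irradiation (SD, n = 3 per group). The difference did not pass (adjusted p = 0.203 by limma). It passed only with GC and length trends of the median transcript removed (log2 change 0.23, adjusted p = 0.0396 by limma).

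**Figure D1:**
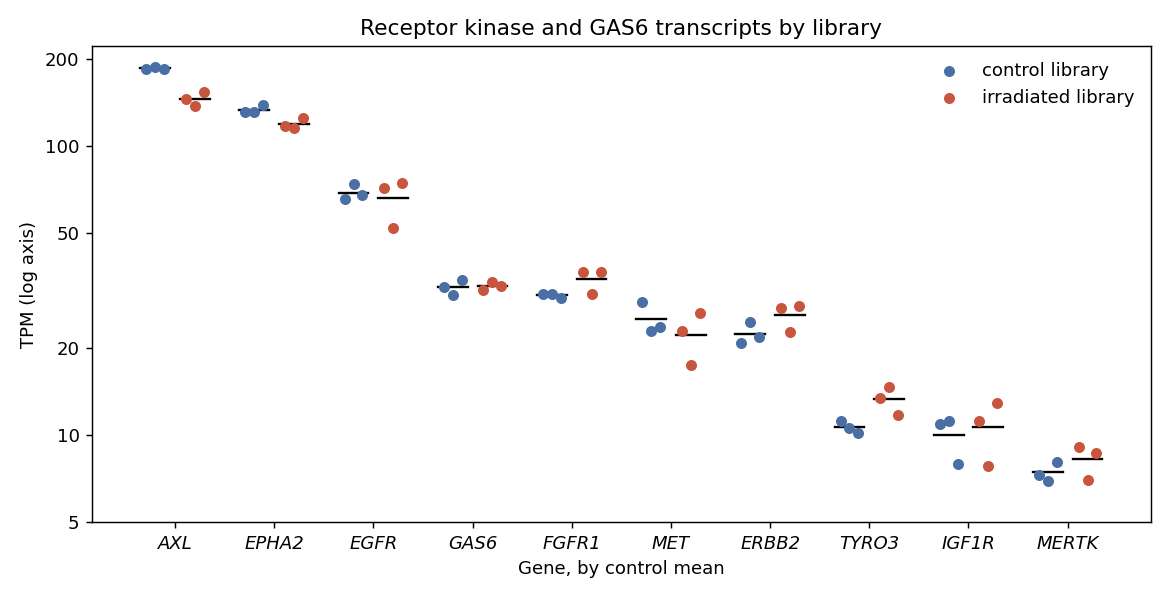
TPM of the 10 genes on a log axis, ordered by control mean, with 1 point per library (blue, control; red, irradiated) and a bar at each group mean. The 3 irradiated AXL values (137.45 to 154.18 TPM) lie below the control values, while the EGFR, MET and IGF1R groups overlap.

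EGFR, the receptor of EGF and TGF-alpha (ENSG00000146648; chromosome 7, 55019021 to 55211628), was the third most abundant member. It was at 65.76, 73.84 and 67.92 TPM in the controls and at 71.49, 52.1 and 74.48 TPM after irradiation. Irradiated replicates 1 and 3 lay within or just above the control range, and irradiated replicate 2 lay below it. The log2 change was -0.08 ± 0.13 SE (95% interval -0.39 to 0.22, adjusted p = 0.725 by limma), and 0.08 ± 0.06 SE without irradiated replicate 2 (adjusted p = 0.436). ERBB2, the ligand-less partner of the other EGFR-family receptors (ENSG00000141736; chromosome 17, 39687914 to 39730426), was at 20.94, 24.57 and 21.97 TPM in the controls and 27.65, 22.79 and 27.94 TPM after irradiation. Irradiated replicate 2 again lay lowest of its group and inside the control range (log2 change 0.20 ± 0.10 SE, 95% interval -0.03 to 0.44, adjusted p = 0.229 by limma). ERBB3, the kinase-impaired member that signals in pairs with ERBB2, was at only 3.12 ± 0.492 and 3.38 ± 1.25 TPM (control and irradiated, SD, n = 3; adjusted p = 0.892 by limma).

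Ligands of EGFR did not pass the test either, and 0 of the 15 tested ligand genes were called, against 10.6% of all tested genes. HBEGF, the most abundant of the 22 ligand genes listed, was at 57.5 ± 0.339 TPM in the controls and 62.5 ± 3.31 TPM after irradiation (SD, n = 3; adjusted p = 0.205 by limma). TGFA was at 11.34, 11.69 and 10.49 TPM against 14.19, 12.74 and 14.6 TPM (log2 change 0.29 ± 0.09 SE, adjusted p = 0.0794 by limma). AREG and EREG lay lower in all 3 irradiated libraries than in any control, with log2 changes of -0.21 ± 0.10 and -0.18 ± 0.08 SE (adjusted p = 0.226 and 0.218 by limma). HBEGF and TGFA lay higher in all 3 than in any control. Of the 15 tested ligand genes, 4 lay wholly above and 3 wholly below the controls, against 20.4% and 14.5% of all tested genes. TGFA passed without irradiated replicate 2 (adjusted p = 0.0457 by limma). With trends on GC content and length removed it passed when the longest transcript of each gene was used (adjusted p = 0.0443) but not with the median transcript (log2 change 0.21, adjusted p = 0.234). ERRFI1, which encodes the intracellular EGFR inhibitor MIG6, fell from 121 ± 4.69 to 103 ± 5.70 TPM (SD, n = 3; log2 change -0.22 ± 0.06 SE, adjusted p = 0.0460 by limma), a call that 10 of 16 alternatives lost.

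MET, the receptor of hepatocyte growth factor (ENSG00000105976; chromosome 7, 116672390 to 116798386), was at 28.92, 22.91 and 23.7 TPM in the controls and 22.92, 17.49 and 26.57 TPM after irradiation. The groups overlapped, and the log2 change was -0.18 ± 0.15 SE (95% interval -0.54 to 0.18, adjusted p = 0.495 by limma), or -0.02 without irradiated replicate 2. Its ligand gene HGF was listed at 0 in 4 libraries and at most at 0.05 TPM. MST1R, which encodes RON, the closest relative of MET, rose from 24.6, 23.55 and 28.69 TPM to 38.54, 41.15 and 39.7 TPM, that is from 25.6 ± 2.72 to 39.8 ± 1.31 TPM (SD, n = 3; log2 change 0.62 ± 0.08 SE, adjusted p = 0.00822 by limma). The MST1R call held in all 16 alternatives. In the controls the MST1R and MET values overlapped, and after irradiation every MST1R value lay above every MET value.

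EPHA2, a receptor of membrane-bound ephrin-A ligands (ENSG00000142627; chromosome 1, 16124337 to 16156087, minus strand), was the member next to AXL in abundance. It was at 131.74, 131.77 and 138.75 TPM in the controls and 117.68, 116.04 and 125.42 TPM after irradiation. The ranges did not overlap, but the 10.7% lower mean did not pass (log2 change -0.16 ± 0.05 SE, 95% interval -0.27 to -0.05, adjusted p = 0.0712 by limma). It stayed uncalled in 13 of 16 alternatives, with adjusted p up to 0.177 (limma). With median-ratio scaling, or when trends on GC content and length were removed, EPHA2 was called lower (adjusted p = 0.0394 and 0.0388 by limma, log2 changes -0.19 and -0.22).

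FGFR1, a fibroblast growth factor receptor (ENSG00000077782; chromosome 8, 38400215 to 38468834, minus strand), was at 30.83, 30.85 and 29.95 TPM in the controls. After irradiation it was at 36.76, 30.86 and 36.8 TPM, so the lowest irradiated value, from replicate 2, all but touched the highest control value. The difference did not pass (log2 change 0.18 ± 0.08 SE, adjusted p = 0.191 by limma), but did without irradiated replicate 2 (log2 change 0.26, adjusted p = 0.0314). FGFR4, another receptor of that family, rose from 14.8 ± 0.885 to 21.9 ± 0.613 TPM (SD, n = 3; log2 change 0.54 ± 0.07 SE, adjusted p = 0.00858 by limma) and was called in all 16 alternatives.

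IGF1R, the receptor of insulin-like growth factors (ENSG00000140443; chromosome 15, 98648539 to 98964530), varied most among replicates. It was at 10.9, 11.2 and 7.93 TPM in the controls and 11.19, 7.83 and 12.9 TPM after irradiation. The groups overlapped over most of their ranges, and the log2 change of 0.07 ± 0.19 SE had an interval of -0.38 to 0.52 (95%, adjusted p = 0.852 by limma). INSR, the insulin receptor, was at 2.85 ± 1.12 and 2.43 ± 0.749 TPM (control and irradiated, SD, n = 3; adjusted p = 0.730 by limma). IGF2R, which clears IGF2 from the cell surface, was at 28.37, 28.86 and 30.63 TPM against 33.36, 34.2 and 33.51 TPM (log2 change 0.20 ± 0.06 SE, adjusted p = 0.0680 by limma), and passed only with GC and length trends of the median transcript removed (adjusted p = 0.0426). IGFBP4, a secreted protein that binds IGFs, fell from 278, 281.89 and 290.33 TPM to 218.88, 227.83 and 222.82 TPM (log2 change -0.34 ± 0.04 SE, adjusted p = 0.00505 by limma) and kept its call in all 16 alternatives. It was the 1 call among 7 tested IGF-binding genes, 14.3% against 10.6% of all tested genes. IGFBP6 was at 56.3 ± 2.75 and 67.9 ± 8.13 TPM (SD, n = 3; log2 change 0.26, adjusted p = 0.112 by limma). Without irradiated replicate 1 IGFBP6 was called (log2 change 0.36, adjusted p = 0.0347), while removing GC and length trends lowered its change to 0.15 with the longest transcript and 0.17 with the median transcript.

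**Figure D2:**
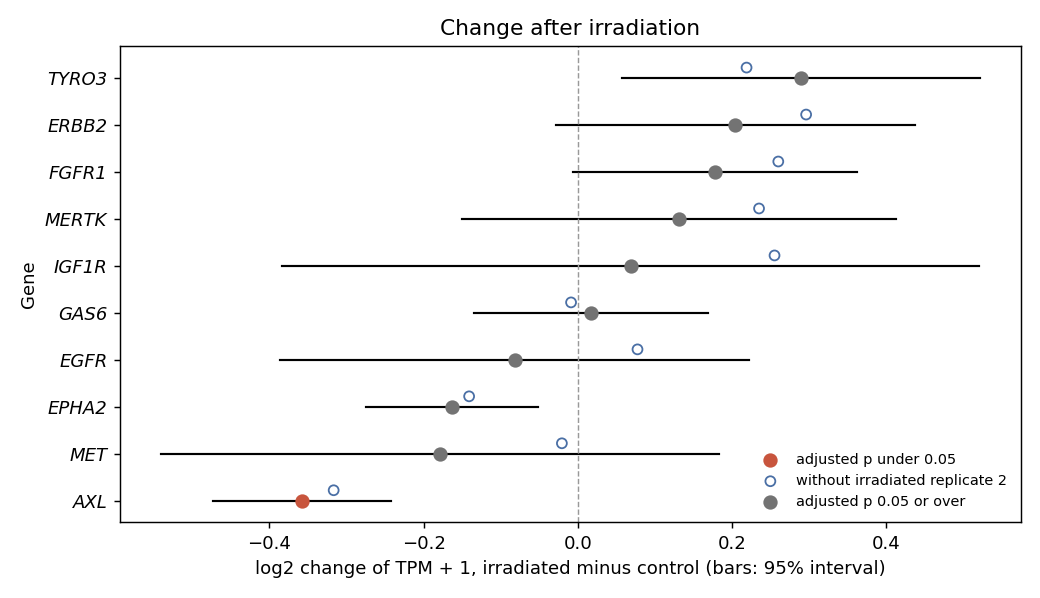
log2 change of TPM + 1 (irradiated minus control) for the 10 genes, with filled points for the fit on all 6 libraries, bars for its 95% interval and open circles for the fit without irradiated replicate 2. AXL is the only gene past the threshold; EGFR moves from -0.08 to 0.08 without that library.

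In order of level, AXL, EPHA2 and EGFR did not overlap with any other member in either group. GAS6 and FGFR1 overlapped each other, as did MET with ERBB2, and TYRO3 with IGF1R and IGF1R with MERTK, in controls and irradiated libraries alike. Only the overlapping pairs GAS6 and FGFR1, and MET and ERBB2, changed places between the groups. Over the 58 receptor tyrosine kinase genes listed, TPM summed to 701 to 714 in the controls and to 643 to 735 after irradiation (exact permutation p = 1). AXL took 26.5%, 26.9% and 26.02% of that sum in the controls and 20.4%, 21.4% and 21.0% after irradiation. The share of EPHA2 was 18.8%, 18.7% and 19.4%, against 16.5%, 18.0% and 17.1%, also without overlap (exact permutation p = 0.1 for either share, the smallest possible, 0.15 adjusted over 6 composition measures). As the sum overlapped between the groups, these shares largely restate the lower TPM of AXL and EPHA2 and add no separate evidence. The share of EGFR overlapped between the groups (8.10% to 10.5% over the 6 libraries).

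Irradiated replicate 2 stood apart for most of the 10 genes. It held the lowest value of the irradiated group for 8 of them, all but TYRO3 and GAS6, and it was also the lowest of its group for 54.7% of all tested genes. Its deviation from the group mean on the log2 scale was -0.37 for IGF1R, -0.32 for EGFR and for MET, -0.21 for MERTK and -0.18 for ERBB2, but 0.14 for TYRO3. The same library was low for genes with long transcripts in general: its median deviation was -0.21 over the 1081 tested genes whose longest GENCODE transcript has 8000 bases or more and 0.02 over the 3500 genes under 2000 bases. The longest transcripts of IGF1R and EGFR have 12235 and 9821 bases, those of AXL and EPHA2 4737 and 3964. TYRO3, with 8207 bases, did not follow this order, nor did MERTK, whose 3954 bases are fewer than those of AXL and of FGFR1 (6216 bases, deviation -0.16) although it lay lower in this library. The part of transcript length in the values of the members was not tested. AXL was called without this library (log2 change -0.32, adjusted p = 0.0182 by limma).

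**Figure D3:**
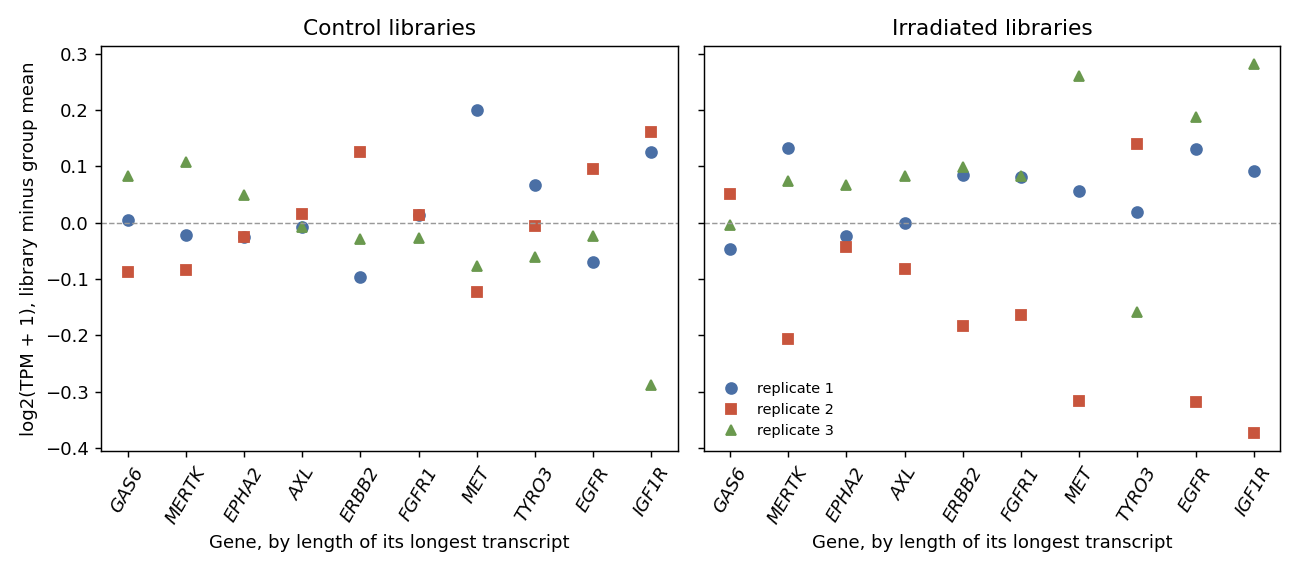
Deviation of each library from its group mean on the log2(TPM + 1) scale for the 10 genes, ordered by the length of the longest transcript, in control (left) and irradiated (right) libraries. Irradiated replicate 2 (squares) lies below 0 for 8 genes, down to -0.37 for IGF1R.

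The remaining receptor tyrosine kinases were read from a list of 49 further genes, of which 17 were tested; the other 32 stayed under the filter, and none of these exceeded 1.52 TPM in any library. Of the 17, 6 rose and none fell, 35.3% against 10.6% of all tested genes. Their median log2 change was 0.23, against 0.03 over all tested genes, and 10 of the 17 had every irradiated value above every control, against 20.4% of all tested genes. Besides MST1R and FGFR4, LTK, a receptor related to ALK, rose from 3.69 ± 0.216 to 6.69 ± 0.3002 TPM (SD, n = 3; log2 change 0.71 ± 0.10 SE, adjusted p = 0.00965 by limma). DDR1, a receptor activated by collagen, rose from 8.51, 10.61 and 9.13 to 13.2, 13.93 and 13.51 TPM (log2 change 0.49 ± 0.10 SE, adjusted p = 0.0250 by limma). PTK7, a pseudokinase of WNT signalling and the most abundant of the 6, rose from 34.1 ± 2.24 to 43.2 ± 1.78 TPM (SD, n = 3; adjusted p = 0.0248 by limma). STYK1, a kinase with hardly any extracellular part, rose from 2.70 ± 0.249 to 4.44 ± 0.328 TPM (SD, n = 3; adjusted p = 0.0294 by limma). RYK, a WNT co-receptor and the most abundant of the 17, was at 46.4 ± 2.10 and 42.2 ± 4.11 TPM (SD, n = 3; adjusted p = 0.306 by limma). The DDR1, PTK7 and STYK1 calls were lost in 6 of 16, 7 of 16 and 7 of 15 alternatives, and LTK in 2 of 16.

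**Figure D4:**
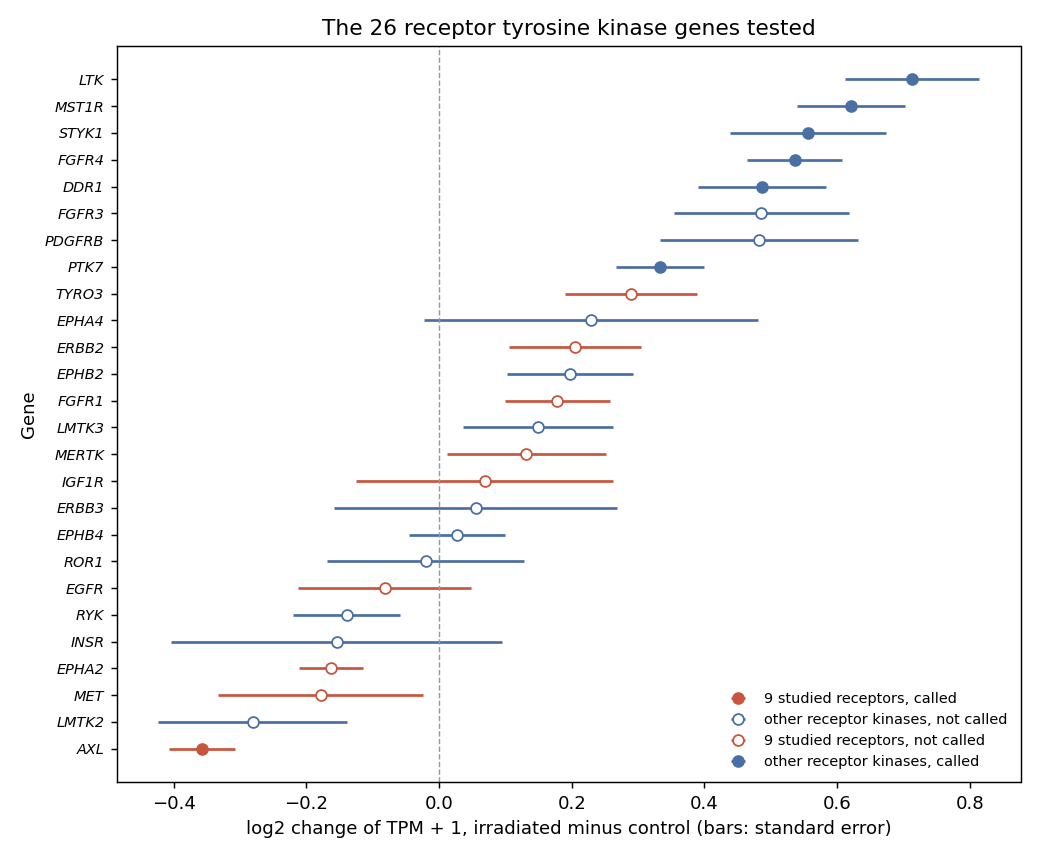
log2 change of TPM + 1 (irradiated minus control) with its standard error for the 26 receptor tyrosine kinase genes tested, in red for the 9 receptors described one by one and in blue for the other 17; filled points passed the test. AXL, at -0.36, lies at the low end, and the 6 called genes of the other 17 lie between 0.33 and 0.71.

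Genes downstream of the receptors were read from the remaining lists. Among 17 adaptors and proximal effectors, PIK3R2, which encodes a regulatory subunit of PI 3-kinase, rose from 1.66 ± 0.308 to 3.08 ± 0.280 TPM (SD, n = 3; log2 change 0.62 ± 0.14 SE, adjusted p = 0.0357 by limma) and was the only call (5.88% of the list, against 10.6% of all tested genes), lost in 10 of 15 alternatives. SHC1 and PTPN11 (SHP2), the most abundant adaptor and phosphatase of that list, had log2 changes of 0.13 ± 0.04 and -0.26 ± 0.14 SE (adjusted p = 0.0977 and 0.261 by limma). SHC1 passed with quantile normalization alone (adjusted p = 0.0481). PTPN11 stood at 86.63, 60.22 and 87.48 TPM after irradiation, again lowest in replicate 2, against 89.04 to 96.47 TPM in the controls, and its log2 change was -0.09 without that library. Among 17 tested genes of receptor turnover, shedding and braking, 2 fell and none rose (11.8%, against the same 10.6%): ERRFI1, given above, and PTPN12, a tyrosine phosphatase known to restrain receptor kinases, which went from 70.1 ± 3.42 to 56.1 ± 4.46 TPM (SD, n = 3; log2 change -0.32 ± 0.07 SE, adjusted p = 0.0340 by limma; lost in 8 of 16 alternatives). HGS, which sorts ubiquitinated receptors to lysosomes, and ADAM10, a sheddase of receptors and ligands, had log2 changes of 0.08 ± 0.06 and -0.21 ± 0.19 SE (adjusted p = 0.386 and 0.508 by limma). With the ligands, the IGF-binding genes and the other receptor kinases included, 10 of 73 tested genes were called, 13.7% against 10.6% of all tested genes. The 17 other receptor kinases gave 6 of these 10 calls. The rest were 0 of 15 ligands, 1 of 17 adaptors and effectors, 2 of 17 turnover genes and 1 of 7 IGF-binding genes.

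Over the 6 libraries, the tested genes of at least 5 TPM whose log2(TPM + 1) followed AXL most closely were CNNM3, ATXN2L and CDH4 (Pearson r = 0.998, 0.996 and 0.995 among 10067 candidates). Those that followed EGFR were EIF4EBP2, BACH1 and KIF1B (r = 0.997, 0.996 and 0.995). EIF4EBP2 shared with EGFR the low value in irradiated replicate 2, 24.5 TPM against 27.96 to 29.72 TPM in the other 5 libraries. These coefficients describe 6 libraries that share their treatment groups and are given with no test.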

How the data were processed

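The authors deposited 1 table of TPM values per gene and library, a transcript's length-scaled share of its library, rounded to 2 decimals, in which every column sums to the same total within rounding. Per the submitters' processing notes, HISAT2, StringTie and RSEM were used with hg38; the sources used here do not state versions, roles, order, strand or annotation. A TruSeq RNA kit was used on total RNA, per the labels. TPM is a share of the library and keeps no read depth, so precision was judged from replicates, and abundant transcripts that rise push the others down.

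Groups came from sample titles. Genes that reached 1 TPM in 3 or more libraries were compared on log2(TPM + 1), which understates changes near 1 TPM, with limma 3.58.1 in R 4.3.3 (two-sided, eBayes with trend, with 4 residual degrees of freedom and a prior of 3.39) and Benjamini-Hochberg adjustment over all 14621 genes. Replicates of a group had identical values in at most 0.479% of tested genes. Alternatives changed the pseudocount, the filter, the scaling, the variance model, a replicate block, GC and length trends, and the libraries included, 1 left out at a time. Gene coordinates and transcript lengths (longest transcript) came from GENCODE 29 on the same assembly, matched by identifier for 97.5% of tested genes; promoters came from RefSeq (GRCh38.p14) for 9 of the 10 genes. The fit was tested on simulated data.

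The 10 genes and the gene lists were chosen with earlier results of these data known. Named besides the 10 were, per list, up to 6 called genes with the largest changes, the 2 most abundant genes and the direct partners of the 10. GC and length correction with the median transcript was added after seeing the data.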

Additional observations from a re-analysis of the deposited data

How the results depend on the processing

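AXL was called lower in all 16 alternatives. Members called lower numbered 2, with EPHA2, after median-ratio scaling and after the GC and length correction with the longest or the median transcript; without 1 library they stayed at 1, and members called higher ranged from 0 to 1 (FGFR1, without irradiated replicate 2). GAS6 turned to a log2 change of -0.013 with median-ratio scaling, -0.066 with the GC and length correction and -0.048 with its median transcript version, and HGS to -0.0082 with the last; ERBB3 turned to -0.068 with quantile normalization. Without 1 library, log2 changes ranged from -0.18 to 0.078 for EGFR, -0.027 to 0.058 for GAS6, -0.075 to 0.26 for IGF1R, -0.16 to 0.24 for ERBB3, -0.33 to 0.068 for INSR and -0.35 to 0.022 for ADAM10; none of these 6 genes was called in any alternative. The other pathway genes called higher (7) numbered 3 with no filter, 2 with the replicate block and 3 to 8 without 1 library; those called lower (3) numbered 5 with median-ratio scaling, 5 with quantile normalization, 1 with eBayes without trend, 1 with no filter, 1 with the replicate block and 1 to 2 without 1 library. All tested genes called higher (955) numbered 292 with no filter, 210 with the replicate block and 187 to 892 without 1 library; those called lower (595) numbered 274 with eBayes without trend, 205 with no filter, 152 with the replicate block and 119 to 498 without 1 library. Median-ratio scaling gave 778 higher and 852 lower calls. Fits without 1 library or with the block have fewer residual degrees of freedom. The part of this or of anything else in the counts was not tested. Deviations of same-numbered replicates from their group means correlated at 0.031, -0.055 and -0.025. These values cannot decide whether the numbers pair the samples, as replicates with different numbers were not compared. With the replicate block AXL kept its call (adjusted p = 0.0456 by limma). Read depth is unknown.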
